A study of Homo sapiens with 4 samples.

Results

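Transcript levels were compared between cells labelled HepG2, a human line from a liver tumour. They had received either an empty vector or a plasmid for FLAG-tagged JFK. Each group is 1 library of total RNA isolated with Trizol and read on a HiSeq instrument, and these 2 are among 4 libraries of the series. The other 2 carry the same line label and were made with siRNA (control or aimed at ING5). They serve only as a check of the tables and as a second pair in which a pattern can be looked for. The libraries were chosen by their transfection label, and the labels give no plasmid dose, promoter, time after transfection or clone. Of 17010 genes listed for the pair, the comparison covers the 12107 with a mean count of at least 20 after scaling for depth, and the other 4903 were not measured well enough. JFK is the older name of FBXO42.

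F-box proteins are the part of Skp1-cullin-F-box ubiquitin ligases that holds the substrate: SKP1 ties the F-box to the cullin scaffold, and the RING protein RBX1 brings in the ubiquitin-charged enzyme. JFK carries Kelch repeats and is known from other cell systems as a ligase subunit for p53 and for the ING protein ING4, a brake on NF-kB signalling. The interferon response starts when RNA or DNA sensors drive interferon production. Secreted interferon then acts through JAK kinases on a complex that includes STAT2 and IRF9 and binds a response element in front of many antiviral genes. In the liver this programme limits hepatitis viruses.

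FBXO42 itself had 116 counts in the vector library and 115 in the other (log2 fold 0.01, counting interval −0.37 to 0.40). The transcript was thus not higher where the label names overexpression, and for that reason the text writes "the library labelled JFK" throughout. Whether the plasmid's own transcript would be counted under this gene was not tested. Folds are log2 ratios of the library labelled JFK over vector, after scaling and with 0.5 added to each scaled count, and intervals are exact 95% Clopper-Pearson intervals that cover counting error only. With 1 library a side no difference has a replicate check and no p-value is given. Fewer cells expressing a gene and less RNA per cell cannot be told apart in such bulk samples.

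The tables sum to 7179365 and 7237325 expected counts over the genes used, and the 10 most abundant genes took 4.23% and 4.48% of them. Most secreted protein markers went against the liver label. Of 20 hepatocyte secreted protein genes, 11 are listed for the pair, and the others, such as ALB, AFP and TTR, have no value. Of the 11, 2 reached 20 counts in each library, the vitronectin gene VTN (2156 and 2598 counts) and the retinol carrier gene RBP4 (34 and 61). The apolipoprotein genes APOA1 (2 and 1 counts) and APOB (0 and 1) were near or at 0. So were SERPINA1 (7 and 3), FGA (3 and 2) and HP (1 and 0). Of 11 hepatocyte transcription factor genes, 8 are listed and 5 reached 20 counts in each, with summed levels of 90.4 and 91.7 CPM, counts scaled to a common library total. At least 20 counts were also reached in each library by 4 of 8 fibroblast genes, 2 of 6 endothelial genes and 2 of 8 leukocyte genes, summing to 76.3 and 79.0, 145 and 164, and 183 and 184 CPM. Listed for the pair were 6 of the fibroblast genes, 5 of the endothelial and 5 of the leukocyte genes. Within the endothelial list CDH5 had 995 and 1132 counts and KDR 0.74 and 0. Within the leukocyte list CD68 had 1183 and 1247 expected counts and LYZ 115 and 72.2, while PTPRC had 8 and 7. Of 7 genes of the breast carcinoma list 4 are listed. The single one above 20 counts was the basal keratin gene KRT17, which sets that list's sums of 2931 and 3811 CPM.

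Most genes lay close together in both libraries. The median log2 fold of all measured genes was 0.00, and 50.5% lay above 0 and 49.5% below. In the library labelled JFK 33 genes were at least 2-fold higher, 0.273% of those measured, and 36 at least 2-fold lower, 0.297%, so 0.57% were that far apart. At 1.5-fold the shares were 1.5% higher and 2.07% lower. Counting intervals lay wholly above 0 for 14.3% and wholly below for 11.2%, and this share grew with abundance, from 8.16% of genes with a mean of 20 to 50 counts to 78.6% of those above 5000, while the SD of the log2 fold shrank from 0.56 to 0.17. The filter stood just above ZNF143-AS1 and FOXN3-AS1 (21 and 19 counts each) and just below H2AC11 (15.9 and 24) and ZNF684 (19 and 21). At the 2-fold threshold, GPR75-ASB3 (27.0 and 53.4 counts) and ANKS1B (14 and 28) fell just short, and RAB3A (16 and 32) and the ribosomal RNA gene RNA18SN5 (7998 and 15760) just passed.

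**Figure D1:**
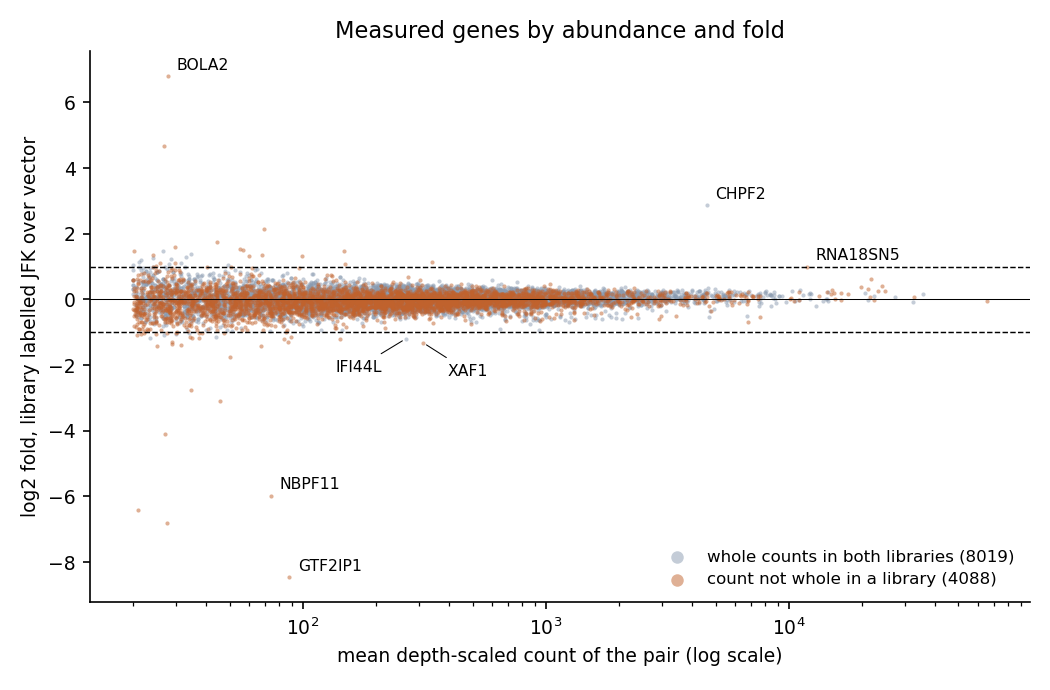
Each point is 1 of the 12107 measured genes, with the mean depth-scaled count of the pair on a log axis against the log2 fold of the library labelled JFK over vector; dashed lines mark 2-fold and colour marks whether both counts are whole numbers. The cloud narrows from left to right, and the farthest points are mostly genes with counts that are not whole; genes with 0 counts in a library, such as BOLA2 and GTF2IP1, stand at a height set by the added 0.5.

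Interferon-induced genes stood lower in the library labelled JFK. Of 38 measured antiviral effectors, proteins that block virus entry, translation or RNA stability, 33 stood below 0 and 27 of the intervals did so entirely, with a median log2 fold of −0.37 and 11 members at least 1.5-fold lower. Among the receptors, sensors and transcription factors that act before them, 16 of 25 lay below 0 and 8 had an interval wholly below 0, with a median of −0.11. Of 6 genes that attach or remove the ubiquitin-like protein ISG15, 5 lay below 0 and 3 had an interval wholly below 0 (median −0.32). In the siRNA pair, ING5 siRNA over control siRNA, the median of all measured genes was −0.01. There the effectors also had a median below 0 (−0.31, with 31 of 38 below 0), as did the ISG15 list (−0.56, with 4 of 6). The sensor list lay at 0.02 with 11 of 25 below 0. Beyond the 3 highest and 3 lowest genes of each list, the members given by name were chosen after their values were seen.

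The folds of this pair followed the base composition of the genes, so many lists are also given after centring on genes of like GC content. That step was chosen after seeing the data. Lists and genes shown without a centred value are given before centring only. After centring, 8.03% of measured genes with a known GC content had an interval wholly above 0 and 6.98% wholly below, 1.14% were at least 1.5-fold higher and 1.76% lower, and 0.235% were at least 2-fold higher and 0.269% lower. The effectors then had a median of −0.27, with 35 of 38 below 0, 30 intervals wholly below 0, none wholly above, and 7 members at least 1.5-fold lower. The sensor list moved to −0.16 with 21 of 25 below 0, 2 intervals above 0 and 9 below, and the ISG15 list to −0.37 with all 6 below 0. For 5 effectors, OAS3, PARP14, EIF2AK2, PLSCR1 and DTX3L, and for USP18, the deposited ING5 siRNA table gives a count that its own RPKM, reads scaled by gene length and depth, does not match, a set of genes described further on. Without them the effector median was −0.24 with 22 intervals wholly below 0, and the ISG15 list's −0.25. Removing these genes and GC centring were not applied together. The siRNA pair's medians above include these genes, all of which lay below 0 in that pair, and were not taken without them.

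Of the sensors, the gene of the long double-stranded RNA sensor MDA5, IFIH1, had 851 counts in vector against 449 in the library labelled JFK (log2 fold −0.90, interval −1.07 to −0.73). The RIG-I gene RIGI had 1695 and 1356 expected counts (−0.30, interval −0.40 to −0.19). IFI16, which binds DNA, had 692 and 534 (−0.35), whereas the gene of the cyclic GMP-AMP synthase CGAS had 209 and 235 (0.19, interval −0.08 to 0.47). The adaptor genes MAVS (904 and 897) and STING1 (525 and 535) lay at 0.01 and 0.05. The sensors thus differed among themselves, with MDA5 farthest below vector and the adaptors near 0.

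The complex genes STAT2 and IRF9 had intervals wholly below 0. STAT2 had 341 expected counts in vector against 244 in the library labelled JFK (−0.46, interval −0.70 to −0.22), and IRF9 had 486 and 363 (−0.40, interval −0.60 to −0.20). Centring on GC content gave −0.49 and −0.50. The kinase genes that phosphorylate the STATs lay near 0, with JAK1 at 0.07 and TYK2 at 0.00. IRF3, the factor that switches on interferon genes before any interferon is made, stood higher, with 490 and 601 counts (0.32, interval 0.14 to 0.49, and 0.18 after centring). The kinase gene TBK1, which activates IRF3, had 204 and 152 counts (−0.40, interval −0.71 to −0.09, both before centring).

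Among the effectors, the farthest below vector was XAF1, an interferon-inducible promoter of apoptosis, with 449 expected counts in vector against 177 in the library labelled JFK (−1.31, interval −1.58 to −1.06). IFI44L had 373 and 160 (−1.19), RTP4 had 33 and 14 (−1.18, interval −2.23 to −0.27) and the ubiquitin ligase gene TRIM22 192 and 99 (−0.93). After GC centring all 4 lay between −1.23 and −0.81.

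The GTPase gene MX2 had 625 and 365 expected counts (−0.75), and OAS2, which makes the activator of RNase L, had 1544 and 948 (−0.68). RSAD2, the gene of viperin, had 402 and 261 (−0.60), and SAMHD1, which depletes nucleotides, had 212 and 141 (−0.56). The IFIT genes, whose products bind foreign RNA caps, were among the most abundant that stood lower: IFIT1 had 2664 and 1819 (−0.53), IFIT3 4051 and 2802 (−0.51) and IFIT2 3536 and 2747 (−0.34).

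Other abundant effectors barely differed. IFI6 had 14352 counts in vector against 14187 in the library labelled JFK (0.01, interval −0.03 to 0.04), IFI27 had 1615 and 1667 (0.07), and the virus-tethering gene BST2 4112 and 4395 (0.12, and −0.01 after centring). OAS1 (2173 and 1936, −0.14) and OASL (6517 and 5988, −0.10) lay only slightly below vector although OAS2 and OAS3 of the same family lay at −0.68 and −0.59. MX1 had 68 and 72 counts (0.11, interval −0.39 to 0.61), whereas MX2 was lower.

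ISG15, the modifier itself, had 11061 and 11923 counts (0.13, interval 0.10 to 0.17, and −0.03 after centring). Its ligase gene HERC5 had 1798 and 1282 (−0.46), and the related HERC6 664 and 502 (−0.38). USP18, which removes ISG15 and blocks the interferon receptor, had 613 and 377 (−0.68, interval −0.87 to −0.49).

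**Figure D2:**
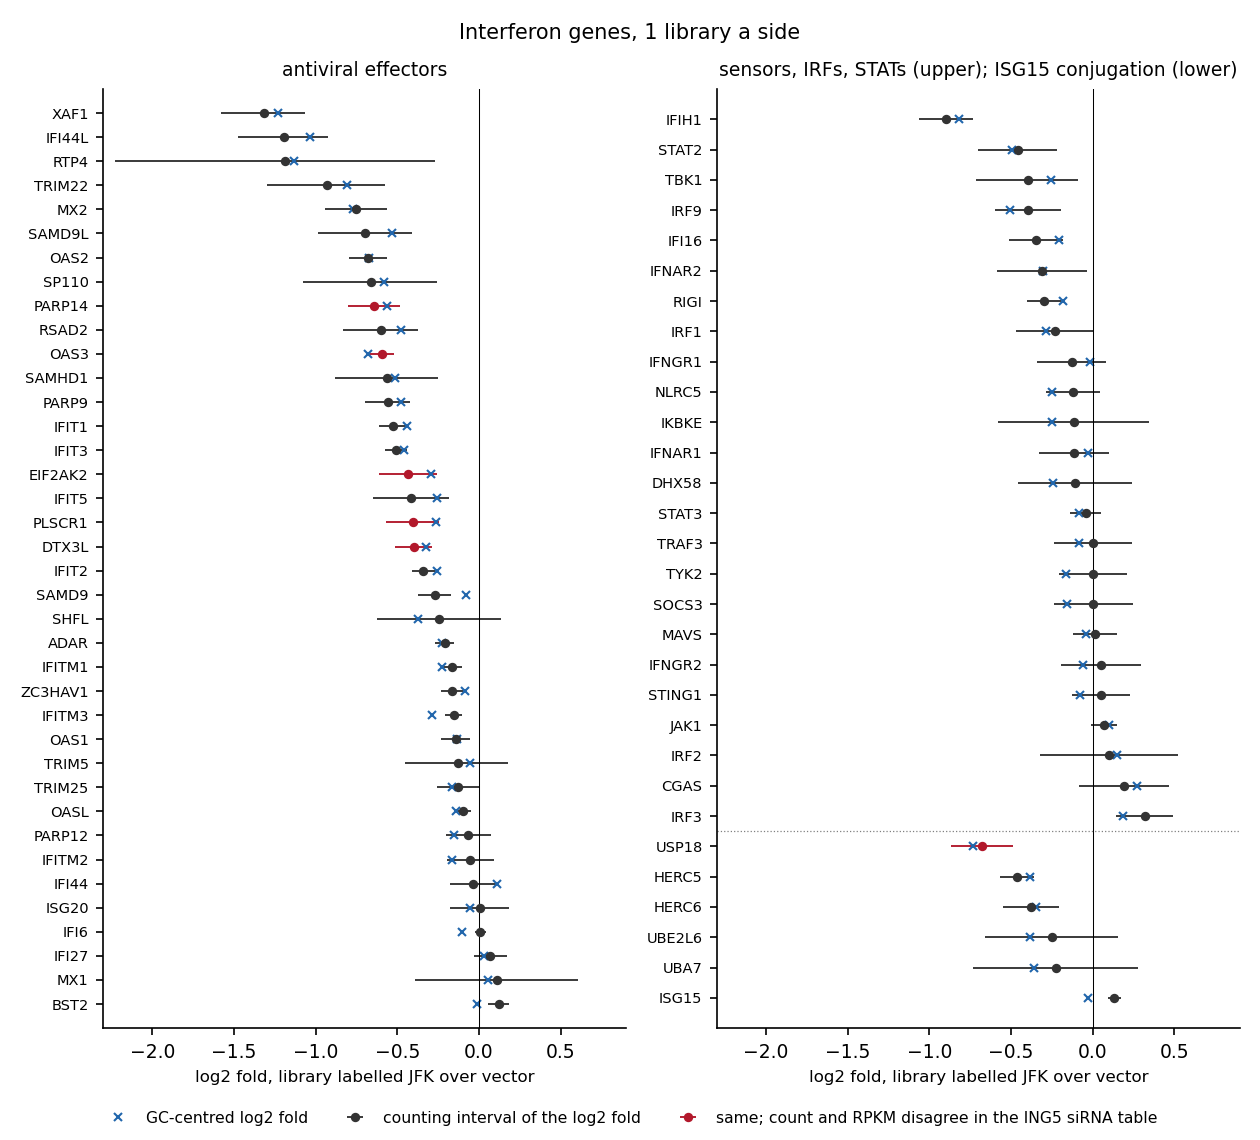
Log2 folds of the library labelled JFK over vector for the measured antiviral effectors (left) and for sensors, IRFs, STATs and ISG15 conjugation genes (right, 1 measured member not drawn), with bars for the counting interval and crosses for the GC-centred value; red marks genes whose RPKM does not match their count under ING5 siRNA. XAF1, IFI44L and RTP4 lie leftmost near −1.2 to −1.3, IFIH1 leads the right panel at −0.90, and IFI6, IFI27 and ISG15 stand at 0 or just above.

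Promoters of members that stood lower are shown beside that of ISG15, which did not, because the interferon response element of many such genes lies in front of the start site. Each sequence holds the 250 bases before the start site, read 5′ to 3′ on the gene's strand and taken from RefSeq on GRCh38.p14, a later build than the files' own. IFI44L (log2 fold −1.19) lies at chr1:78620198-78620447 on the plus strand, IFIH1 (−0.90) at chr2:162318685-162318934 on the minus strand, RTP4 (−1.18) at chr3:187368135-187368384, XAF1 (−1.31) at chr17:6755796-6756045 and ISG15 (0.13) at chr1:1013247-1013496, the last 3 on the plus strand. Capitals mark matches to GAAANNGAA, the core of the response element, on either strand, with overlapping matches run together.
IFI44L: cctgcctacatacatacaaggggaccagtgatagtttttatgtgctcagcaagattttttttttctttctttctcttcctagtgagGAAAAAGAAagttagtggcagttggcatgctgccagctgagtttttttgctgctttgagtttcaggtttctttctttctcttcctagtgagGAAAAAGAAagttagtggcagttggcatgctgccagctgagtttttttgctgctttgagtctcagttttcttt
IFIH1: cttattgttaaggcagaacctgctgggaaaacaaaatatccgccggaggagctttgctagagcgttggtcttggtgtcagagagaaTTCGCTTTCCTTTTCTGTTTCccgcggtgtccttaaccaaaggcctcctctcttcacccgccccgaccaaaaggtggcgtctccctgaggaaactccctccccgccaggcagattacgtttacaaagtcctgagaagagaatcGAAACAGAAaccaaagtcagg
RTP4: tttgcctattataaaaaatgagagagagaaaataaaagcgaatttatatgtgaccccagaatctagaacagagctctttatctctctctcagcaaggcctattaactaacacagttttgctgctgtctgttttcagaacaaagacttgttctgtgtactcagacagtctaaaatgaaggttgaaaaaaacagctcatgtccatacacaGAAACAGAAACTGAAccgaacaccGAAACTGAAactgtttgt
XAF1: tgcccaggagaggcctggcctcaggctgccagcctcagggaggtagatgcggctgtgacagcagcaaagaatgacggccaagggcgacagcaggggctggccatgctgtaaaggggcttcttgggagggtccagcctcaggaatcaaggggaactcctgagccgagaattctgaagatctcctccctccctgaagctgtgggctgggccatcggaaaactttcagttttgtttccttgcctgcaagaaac
ISG15: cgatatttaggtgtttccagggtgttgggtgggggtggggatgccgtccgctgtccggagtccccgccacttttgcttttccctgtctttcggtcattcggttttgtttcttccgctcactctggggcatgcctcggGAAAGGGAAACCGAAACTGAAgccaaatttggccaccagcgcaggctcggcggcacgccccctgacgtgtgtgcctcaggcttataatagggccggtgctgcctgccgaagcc

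The letters occur 2 times in the IFI44L stretch, 4 times in that of IFIH1, 3 times in each of RTP4 and ISG15, and not in that of XAF1. The match nearest the start site begins 73 bases before it in IFI44L, 21 in IFIH1, 18 in RTP4 and 101 in ISG15. The motif was searched on both strands from 250 bases before to 50 after the start site of 27305 RefSeq promoters, of which 8.29% hold it. Of 32 effectors with a promoter entry 23 hold it (71.9%), against 612 of 9740 measured genes (6.28%). The 23 effectors with a match had a median of −0.27 and the 9 without had one of −0.56, a difference that was not tested. Over all measured genes the medians were −0.03 with a match and 0.00 without. A match is a description of letters, not a bound site.

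Genes of the peptide-presenting machinery, many of which interferon also raises, did not stand lower. Of 18 measured, the median was 0.04 before and 0.03 after centring. HLA-B had 21392 expected counts in vector against 25232 in the library labelled JFK (0.26, or 0.13 after centring). Reads of near-identical class I genes may be divided between them. B2M, the shared light chain, had 33674 and 31469 counts (−0.07, and 0.04 after centring).

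The ligase machinery around JFK differed little once composition was taken into account. Of 24 Skp1-cullin-F-box genes, 19 lay below 0 and 8 had an interval wholly below 0, with a median of −0.11, while after GC centring 12 lay on each side, no interval was wholly below 0, 1 was wholly above and the median was −0.02. FBXO28, an F-box gene, had 323 counts in vector against 252 in the library labelled JFK (−0.33, and −0.19 after centring). UBA3, of the enzyme that activates the cullin modifier NEDD8, had 414 and 335 (−0.28, and −0.14 after centring). UBE2M, the enzyme that passes NEDD8 on to cullins, was the highest, with 490 and 560 (0.22, and 0.04 after centring).

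The substrates' side gave no single direction. Over 36 measured p53 target genes the median was 0.04, with 6 intervals wholly above and 6 wholly below 0. After GC centring the median was 0.01, with 5 intervals wholly above and 2 wholly below 0. GDF15, a secreted stress cytokine, had 554 and 756 counts (0.47, interval 0.31 to 0.63), and the ribonucleotide reductase subunit gene RRM2B 203 and 133 (−0.58, interval −0.91 to −0.26). ZMAT3, an RNA-binding p53 target, lay at −0.49. The ING family and its acetyltransferase partners had a median of −0.00 over 17 genes. ING4 had 168 and 166 counts (0.01), and ING5 181 and 145 expected counts (−0.29, interval −0.62 to 0.03). After GC centring ING5 lay at −0.38 with an interval of −0.71 to −0.06.

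Of 17 measured NF-kB target genes the median was 0.06, or 0.01 after centring. IL6, the inflammatory cytokine, had 110 counts in vector against 174 in the library labelled JFK (0.68, interval 0.33 to 1.04), and kept 0.73 after centring. IL32, another cytokine, has a blank count in the library labelled JFK. Its deposited FPKM, fragments scaled by gene length and depth, went from 31.3 to 44.7, which implies 314.0 counts against 220 (0.54, interval 0.28 to 0.79). NFKB2, a subunit precursor, had 1454 and 1719 (0.27, and 0.10 after centring), and CXCL2, a chemokine gene, had 32 and 25 (−0.32, interval −1.15 to 0.47).

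Apoptosis regulators had a median of 0.02 over 30 genes, with members on both sides of 0. The caspase gene CASP6 had 99.3 expected counts in vector against 63.9 in the library labelled JFK (−0.61, interval −1.08 to −0.14). The pro-death BH3 genes BIK (31 and 54 counts, 0.81, interval 0.16 to 1.51) and BID (175 and 227, 0.40, interval 0.11 to 0.69) stood higher, whereas PMAIP1, another BH3 gene, had 298 and 243 counts (−0.27, interval −0.52 to −0.02, and −0.11 after centring). CASP6, BIK and BID kept their side of 0 after centring, between −0.56 and 0.71.

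Composition ordered the genes of this pair. The measured genes were ranked by the GC content of their longest annotated transcript, known for 98.3%, and cut into 10 equal groups. The median log2 fold climbed at each step from −0.17 in the lowest group (median GC content 37.0%) to 0.17 in the highest (63.9%). Genes above 0 made up 15.5% of the lowest group and 84.0% of the highest, and intervals wholly below 0 made up 29.9% and 1.76%. Across genes, Spearman's rho between log2 fold and GC content was 0.526 over 11907 genes, which share 2 libraries and are not independent, and 0.702 over the 1565 with a mean of at least 1000 counts. The siRNA pair, read on the same kind of instrument, showed medians between −0.04 and 0.00 over the same groups and a rho of 0.00083. The rho with gene length was −0.216, and the median by length fell from 0.07 in the shortest of 5 groups to −0.06 in the longest. What set this order was not tested.

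**Figure D3:**
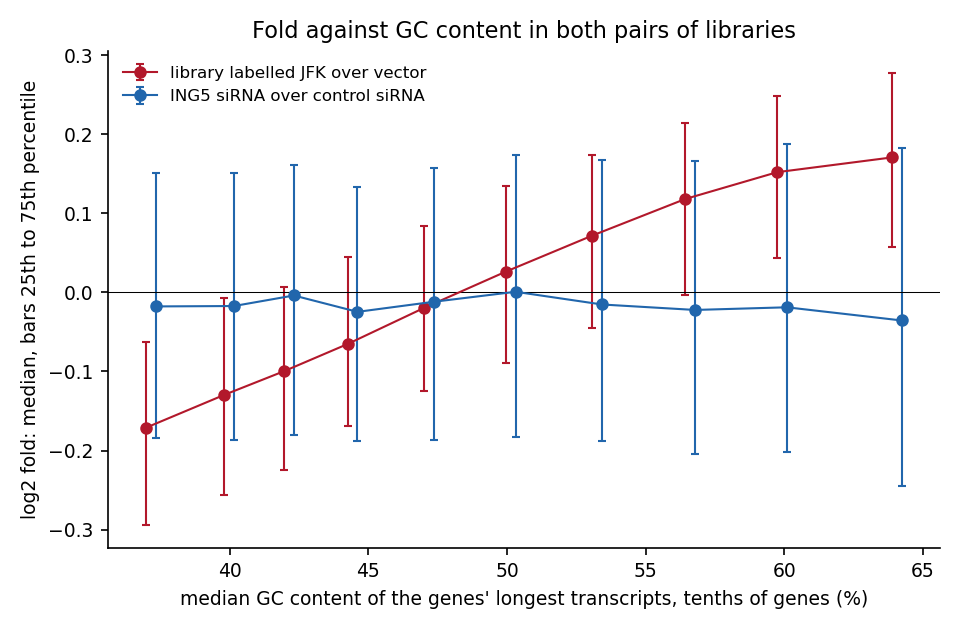
Median log2 fold (points) and 25th to 75th percentile (bars) of measured genes in 10 groups by GC content of the longest transcript, for the library labelled JFK over vector (red) and ING5 siRNA over control siRNA (blue, drawn slightly to the right). The red medians climb from −0.17 to 0.17 and the blue ones stay between −0.04 and 0.00.

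Several lists of GC-rich genes stood higher before centring than after it. The 5 measured metallothionein and zinc export genes (median GC content 53.5%) did not, with medians of −0.15 before and −0.12 after. Immediate early genes, transcribed within minutes of a stimulus, had a median of 0.18 with 10 of 20 intervals wholly above 0, and 0.06 with 3 after centring. JUN had 79 counts in vector against 120 in the library labelled JFK (0.62, and 0.49 after centring, where it still led the list). Glycolysis genes went from a median of 0.17 with 14 of 25 intervals above 0 to 0.09 with 11, and lysosome and autophagy genes from 0.11 with 12 of 31 to 0.04 with 6. Splicing factor genes, which are poorer in GC, went from −0.05 with 14 of 34 intervals below 0 to −0.00 with 2.

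Lists of housekeeping machinery moved less on GC centring. Cytosolic ribosomal protein genes had a median of 0.08 over 76 genes, 57 of them above 0, and 0.06 after centring, with 41 intervals wholly above 0 and 4 below. RPS13, of the small subunit, was lowest with 2111 and 1892 counts (−0.13). Mitochondrial ribosomal protein genes had medians of 0.06 and 0.05 and respiratory chain genes 0.07 and 0.07, led by MRPL2 (267 and 335, 0.35) and by the cytochrome oxidase gene COX8A (786 and 975, 0.33). Proteasome genes had medians of −0.02 and 0.02. Centring on gene length instead took the cytosolic and the mitochondrial ribosomal protein medians to 0.002 each. It took the respiratory chain median to −0.005 and the proteasome median to −0.06.

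Metabolic lists held a few members far from their median. HMGCS1, which makes HMG-CoA for cholesterol, had 1194 counts in vector against 804 in the library labelled JFK (−0.55, interval −0.68 to −0.42), in a list of 24 whose median was 0.06, and LSS, which closes the sterol ring, had 2291 and 2663 (0.24). Fatty acid and triglyceride synthesis genes had a median of −0.03. Of the gluconeogenesis genes the fructose bisphosphatase gene FBP1 had 19 and 50 counts (1.40, interval 0.63 to 2.27), the widest step of any list member with whole counts that stood higher. The transcriptional coactivator gene CRTC2, which serves the same pathway, had 305 and 383 (0.35).

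Stress lists lay near 0 with scattered members. The median of amino acid response genes was 0.01, yet the asparagine synthetase gene ASNS had 148 and 102 expected counts (−0.51) and the cystine carrier gene SLC7A11 807 and 560 (−0.50). Within the NRF2 list, which also holds SLC7A11 and had a median of 0.08 both before and after centring, the haem-degrading enzyme gene HMOX1 had 126 and 170 counts (0.45, interval 0.12 to 0.80). Of 5 measured genes for metallothioneins and zinc export, MT1E had 108 and 68 (−0.64) and MT2A 968 and 699 (−0.45), both with intervals wholly below 0, and MT1X had 64 and 68 (0.13). The unfolded protein response had medians of −0.01 and 0.03, and heat shock chaperones 0.07 and 0.03.

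Proliferation lists also lay near 0, with medians of 0.02 for G2/M genes, −0.02 for replication genes and −0.03 for DNA repair genes. The replicative polymerase gene POLD1 had 543 counts in vector against 729 in the library labelled JFK (0.45, and 0.27 after centring), and PCNA, its sliding clamp, 2137 and 1853 (−0.18). TOP2A, MAD2L1 and ATR, at −0.58, −0.41 and −0.44 among the lowest of their lists, belong to the genes whose RPKM does not match their count under ING5 siRNA.

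Among epithelial and matrix lists the keratins lay farthest from 0. Of 10 measured keratins 8 lay above 0, with a median of 0.38, or 0.23 after GC centring. KRT17 had 20990 expected counts in vector against 27539 in the library labelled JFK (0.42), and KRT8, a keratin of simple epithelia, 17370 and 22309 (0.39), or 0.28 each after centring. KRT18, the partner with which KRT8 forms filaments, went the other way with 9131 and 6173 (−0.54), as did KRT7 with 8414 and 5183 (−0.67), and both are in the disagreeing set. Junction genes had a median of 0.01, mesenchymal genes 0.12, collagens, laminins and integrins 0.13, and matricellular targets of YAP and TGF-beta 0.15. Centring took the last 3 to 0.10, 0.05 and 0.10. LAMB3, a laminin chain of epithelial basement membranes, had 1872 and 2381 counts (0.37), and CCN1, a secreted matrix protein, 1522 and 1920 (0.36).

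Among genes with whole counts in both libraries and a matching FPKM ratio, those farthest above vector were a mixed group. Beside FBP1 and IL6 they include ARNT2, a partner of bHLH-PAS factors, with 486 counts in vector against 716 in the library labelled JFK (0.58, interval 0.42 to 0.75), MYL9, a myosin light chain gene, with 296 and 427 (0.55), and IGFBP6, which binds insulin-like growth factor II, with 626 and 894 (0.54). All 3 had an interval wholly above 0, which follows from the rule that chose them by interval bound. At lower counts were RNFT2 (14 and 39, 1.47), SPINK4 (19 and 47, 1.31), the GATA cofactor gene ZFPM1 (32 and 66, 1.06) and the chloride channel gene CLIC3 (63 and 109, 0.81). Of the 15 chosen by the same rule on the lower side, IFI44L, TRIM22, IFIH1, OAS2 and the LIM-domain gene CRIP2 (157 and 81, −0.93, and −1.10 after centring) are outside the disagreeing set, and the other 10 are in it.

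The disagreeing set was defined in the siRNA tables and not in this pair. Under ING5 siRNA 112 of 16093 genes above 0 have a count other than the one that RPKM and gene length give, against 37 of 16062 under control siRNA. Of the 112, 110 were measured here, and 108 of them lay below 0 in the library labelled JFK. Their median log2 fold was −0.47 (25th to 75th percentile −0.56 to −0.42), or −0.41 after GC centring. The interval was wholly below 0 for 106 of them (96.4%), against 11.2% of all measured genes and 10.4% of those outside the set, and 23 were at least 1.5-fold lower. The 14 measured genes of the control siRNA table's own set had a median of 0.10. This comparison was chosen after seeing the data, and the reason for the overlap was not tested.

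The members of the set named here have various roles, and 5 of the 38 measured effectors are among them. AMD1, a polyamine synthesis enzyme gene, had 1241 counts in vector against 645 in the library labelled JFK (−0.92), and the sialomucin gene CD164 1088 and 633 (−0.76). The oxidase subunit gene CYBA had 638 and 393 (−0.67), FARSA, a tRNA synthetase subunit gene, 1476 and 932 (−0.64), and the respiratory complex I gene NDUFS6 1120 and 709 (−0.64). FXR1, an RNA-binding protein gene, had 1081 and 688 (−0.63), and TRAM1, of the protein translocation channel, 2493 and 1614 (−0.60). In the siRNA pair, where the set was found, its members lay between −1.07 and −0.35 with a median of −0.53. The exceptions in the library labelled JFK were PLXNB2 (1967 and 2195, 0.18) and CHPF2.

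Well-counted genes that stood lower were to a large part members of this set. Among 7090 genes with a mean of at least 200 counts, 188 had a log2 fold of −0.4 or less, and 91 of these (48.4%) belong to the set, against 75 genes at 0.4 or more. At −0.5 or less it was 45 of 80 (56.3%), with 13 genes at 0.5 or more. At least 1.5-fold lower and outside the set stood 15 such genes, of which MX2, OAS2, IFI44L, XAF1, IFIH1, RSAD2 and SAMD9L are interferon-induced. In the table of the library labelled JFK the listed count departed from the one its FPKM gives by over 0.1% beyond rounding for 60 of 104 set members that could be checked (57.7%), and for 16 of 8600 other genes (0.186%).

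**Figure D4:**
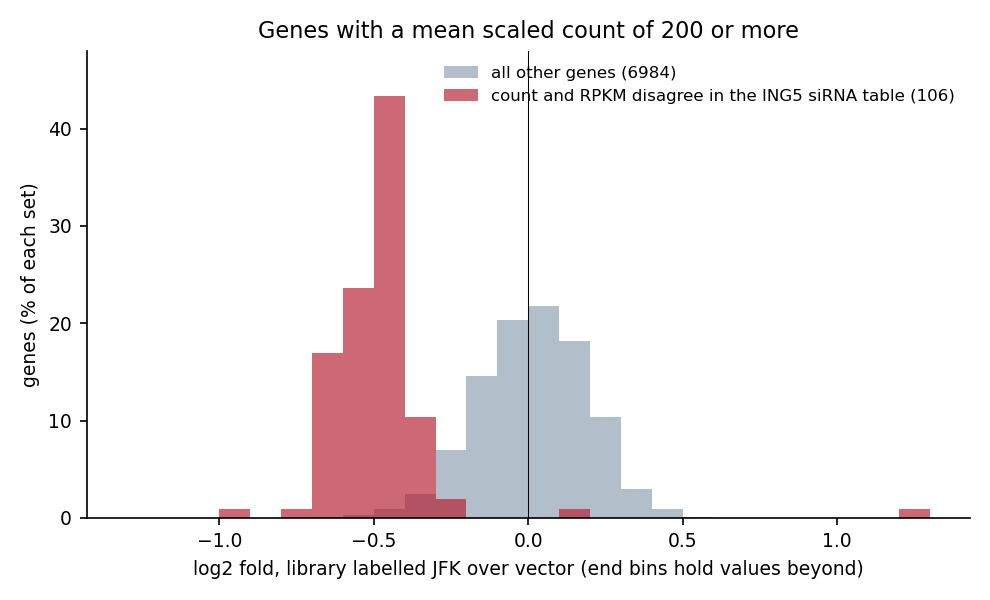
Distribution of log2 folds of the library labelled JFK over vector among genes with a mean scaled count of at least 200, as a percentage of each set: red, the 106 genes whose RPKM does not match their count under ING5 siRNA; grey, the 6984 others. The red bars peak between −0.5 and −0.4, left of nearly all grey bars, which centre on 0, and the red bar at the right edge is CHPF2.

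A count and an FPKM of the same gene and library give a gene length when the depth is known, which allowed each count to be checked. FPKM followed the count over the gene length less 36 bases in both libraries, with the length deposited for the library labelled JFK used for both. In the library labelled JFK 5 of 8704 genes departed from this by over 3%, and all 5 belong to the set of 112. CHPF2, which builds chondroitin chains, is listed with 1115 counts in vector against 8053 in the library labelled JFK (2.88), while its FPKM went from 38.8 to 27.8 and implies 810 counts (−0.44, interval −0.57 to −0.30). Its direction therefore turns with the column read. QSOX1, a secreted thiol oxidase gene, is listed with 1975 and 1520 (−0.35), and its FPKM implies 1249 (−0.64, interval −0.74 to −0.53). The listed counts of ABCC4, KIF13A and NCOA7 stood at 1.06, 1.03 and 0.962 times the implied ones.

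The vector counts and FPKM were set against the gene length deposited for the library labelled JFK, not against vector's own length column. By that length 397 of 8850 genes departed by over 3% in vector. Of these, 376 were among the 3352 whose length in the library labelled JFK is not a whole number. Over both libraries 145 measured genes (1.20%) had count and FPKM ratios over 1.1-fold apart. Of 8112 genes with a usable length in both libraries, 48 (0.592%) differed by over 1.1-fold in the transcript length so implied, 13 of them longer and 35 shorter in the library labelled JFK. ETNK1, an ethanolamine kinase gene, had 263 and 254 counts yet FPKM of 6.57 and 9.58, so its implied length was 5517 bases in vector against 3618 in the library labelled JFK. For SKP2, the F-box gene of cell cycle control, the lengths were 2527 and 2275, and for the caspase inhibitor gene CFLAR 6154 and 5575. Which transcript forms the reads came from was not tested.

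Of the 69 genes at least 2-fold apart, 49 (71.0%) had a count that was not whole, as when reads are divided between genes of like or overlapping sequence. Over all measured genes that share was 33.8%. By FPKM 54 of the 69 were also at least 2-fold apart in the same direction. With whole counts and matching ratios 18 remained, 13 higher and 5 lower. A gene that shares reads with a copy or readthrough partner accounted for 25 of the 69. The share of all measured genes that stand in such families was not counted.

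The sums over whole families lay closer to 0 than these members. Of 21 families of near-identical or overlapping genes, 14 had a member at least 2-fold apart. In all 14 the log2 fold of the family sum lay between −0.26 and 0.40. These families were a chosen list, so 14 of 21 is not a rate over all such genes. A sum also lies nearer 0 than its farthest member by construction. Of 66 readthrough families, in which a joined transcript spans neighbouring genes, 9 had such a member and sums between −0.42 and 0.27. None of these sums was 1.5-fold apart. Where the member holds a small share of its family, as EIF3CL with 1.70% and NBPF11 with 3.15% of the counts in vector, its loss could not have moved the sum that far. BOLA2, for an iron-sulfur cluster protein, had 0 expected counts in vector against 55.2 in the library labelled JFK, at least 18.7-fold higher against a floor of 3 counts per library. Its copy BOLA2B had 647 and 649, and the sum went from 647 to 704 (0.15, interval −0.01 to 0.30).

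GTF2IP1, a pseudogene of the transcription factor gene GTF2I, had 178 and 0, at least 58.2-fold lower, while GTF2IP4 had 210 and 330 and the family sum lay at −0.07. EIF3CL, a copy of a translation initiation factor gene, had 55.4 and 0, at least 18.2-fold lower, and its family sum lay at −0.01. The complement genes C4A (97.3 and 201 expected counts, 1.07) and C4B (196 and 107, −0.85) moved oppositely, with a sum of 293 and 308 (0.10). The highest sum was that of INO80B, its neighbour WBP1 and their readthrough INO80B-WBP1, at 308 and 399 (0.40, interval 0.18 to 0.62). INO80B, a chromatin remodeller subunit gene, had 1.56 and 51.9 and WBP1 94.7 and 156 (0.74), while the readthrough had 212 and 191 (−0.12).

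**Figure D5:**
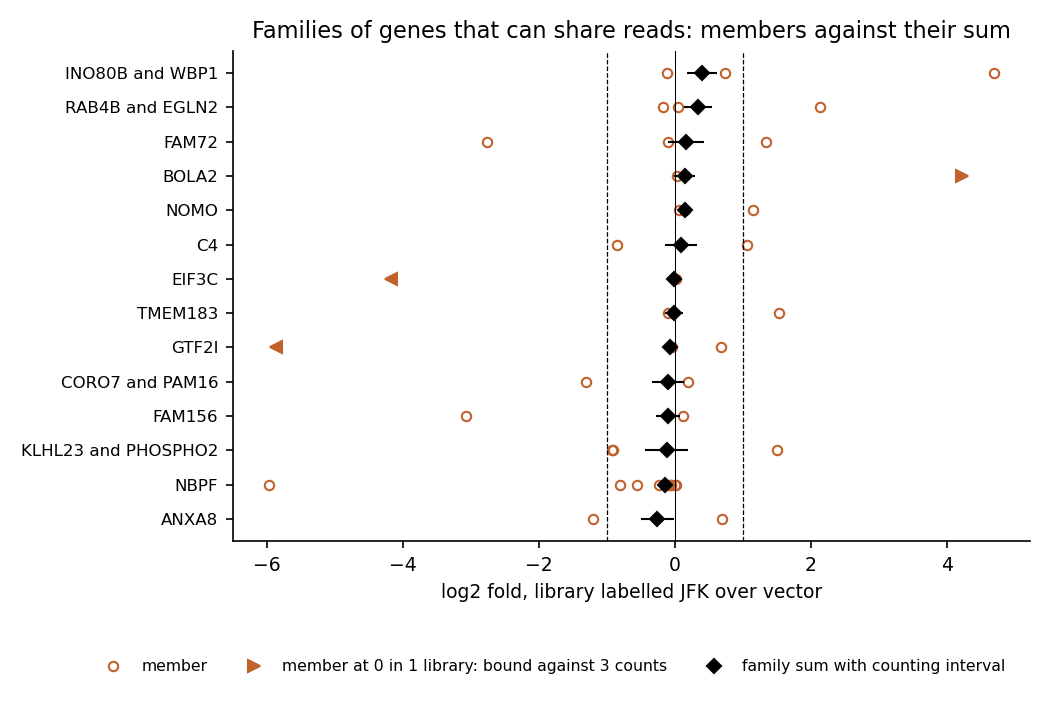
Log2 folds of single members (open circles) and of the family sum with its counting interval (black diamonds) for the 14 families of near-identical or overlapping genes with a member at least 2-fold apart; triangles are bounds against 3 counts for members at 0 in a library, and dashed lines mark 2-fold. Members reach from about −6 to almost 5, while the sums stay between −0.26 and 0.40.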

How the data were processed

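Tables for libraries labelled HepG2 with Vector or JFK, 1 each, were compared, and those of control and ING5 siRNA were read beside them. Per the file headers the first pair holds deposited expected counts (68.6% and 69.0% whole) and deposited FPKM. The siRNA pair holds deposited whole counts and deposited RPKM, also per the file headers. The submitters' processing notes name STAR, fastp, FastQC and DESeq2, and the builds hg19 and GRCh37. Versions, roles and the read counter are not given in the sources used.

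Entrez identifiers were matched to RefSeq symbols (16900 of 17010). Counts were scaled by TMM (trims 0.3 and 0.05) to the mean library size before 0.5 was added and the log2 ratio taken. Intervals are exact 95% Clopper-Pearson intervals from rounded counts. They treat reads as independent, which reads lacking molecular identifiers are not. The limit of 3 counts that a 0 allows equals 0.418 CPM in vector and 0.415 CPM in the other library. Genes with a mean scaled count of at least 20 were taken as measured. GC content came from the longest GENCODE 29 transcript, and centring subtracted the median of 20 bins. Counts were checked against the FPKM where they exceeded 50 and the FPKM exceeded 5, with a tolerance of 3%, and against the RPKM with one of 0.001 counts. Chosen after seeing the data were the tolerance of 0.1%, the thresholds of 200 counts and of −0.4 and −0.5, GC and length centring, and the comparison without the genes that disagree under ING5 siRNA.

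The members and the 39 gene lists (1040 genes) were chosen with earlier results of these data known. The rule for named genes took FBXO42, ING4, ING5, CHPF2, QSOX1 and IL32. It added, by interval bound, 12 genes a side among those 2-fold apart and 15 a side among genes with whole counts and matching ratios, then 3 members from either end of each list, and members of read-sharing families. The text draws on these, a few of them are not reported here, and other names were chosen after their values were seen. Python 3.11.15, numpy 2.4.6, pandas 2.3.3, scipy 1.17.1 and matplotlib 3.10.9 were used, and the calculations were tested on simulated data.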

Additional observations from a re-analysis of the deposited data

Results flagged for a closer look

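Under ING5 siRNA 112 genes have a count that does not match their RPKM, against 37 under control siRNA; they drew notice because these tables lie outside the comparison and 110 of the 112 were measured in it, 108 of them lower in the library labelled JFK. The count of IL32 is blank in that library, while its FPKM implies 314.0 counts against 220 in vector.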

How the results depend on the processing

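The counts of 33 genes at least 2-fold higher and 36 lower depended most on the filter: without one they were 1035 and 1181, at a mean of at least 100 they were 5 and 3, and with only whole counts 14 and 6. Adding 5 counts gave 22 lower genes. Under the other 7 scalings, units and gene sets they lay within 1.5-fold. The metallothionein list's median of −0.15 was −0.30 without a filter and −0.40 with whole counts only, and the non-coding RNA list's −0.01 was −0.13 at a mean of at least 100. After GC centring the keratin median was 0.23 and that of immediate early genes 0.057, and without the genes whose RPKM does not match under ING5 siRNA the effector median was −0.24. The effector median ran from −0.41 to −0.24 over all 11 alternatives, each taken singly, and the sensor median from −0.16 to −0.04. By FPKM CHPF2 lay at −0.44, and GC centring turned B2M to 0.040, BST2 to −0.011 and ISG15 to −0.032; the cause was not tested. FBXO42 lay between −0.02 and 0.02 throughout. Depth limits genes near 20 counts, where intervals reach 1.5-fold and more either way. No library could be left out, with 1 per group. No paired analysis was possible because the groups hold 1 library each and share no replicate.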
